A study of Mus musculus with 6 samples.

Results

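Lymphoid-primed multipotent progenitors (LMPP) of adult mouse bone marrow were compared between E2A knockout (E2A-KO) and wild-type (WT) mice, with 2 arrays of each genotype out of 6 arrays in the series. The arrays were chosen by their titles. Both groups were sorted from bone marrow as cells without lineage markers, with SCA1 and KIT, and with high FLT3 on the surface. The WT mice were C57bl/6 and the knockout mice were on that background. The deleted part of the gene, the cells in which it was deleted, and the sex and exact age of the mice are not given here. The other 2 arrays held WT LSK FLT3- cells, the LIN-SCA1+KIT+ fraction that lacks FLT3 on the surface, and none of the 6 arrays held knockout cells of that fraction. These 2 arrays entered the fit to estimate the spread between arrays, and their levels are given beside those of LMPP. The labels do not tell whether replicate arrays represent different animals or cell preparations, and p-values therefore cover just the array-to-array spread, which may be technical.

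E2A proteins are transcription factors of the basic helix-loop-helix class, made from the gene Tcf3 by splicing. They bind the short DNA sequence CANNTG, the E-box, as dimers, and Id proteins bind them in turn and keep them from DNA. E2A is best known for its need in B and T cell development, where it acts with other factors on genes of antigen receptors and their signalling. LMPP are multipotent cells that can still give lymphoid, granulocyte and monocyte cells and have started to express lymphoid genes at a low level.

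Levels are deposited intensity values taken to log2, and each of 18194 genes was represented by 1 probe set. Differences are E2A-KO LMPP minus WT LMPP on the log2 scale, so that -1 is a 2-fold lower level, with the SE of the model. A gene is said to have risen or fallen where the Benjamini-Hochberg adjusted p of the moderated test in limma, over all 18194 genes, was under 0.05. The array medians lay between 4.01 and 4.04 on the LMPP arrays, and below about that level the array compresses differences. In these bulk samples fewer cells that express a gene and less RNA per cell cannot be told apart.

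Of the 18194 genes, 250 passed, which is 1.37% of those tested: 69 rose (0.379%) and 181 fell (0.995%). The gene lists below were drawn up with earlier results of these data known. Their counts are descriptions to be read beside these shares, and no list was tested. The 2 arrays of one genotype lay apart from the 2 of the other in all 250, and also in 41.6% of all genes tested. The median difference over all genes was -0.02, and 9603 of 18194 genes were below 0. A fall of at least 2-fold was measured for 94 genes and a rise of that size for 29. In 14 alternative fits 57 of the 250 calls passed every time, 40 of them falls and 17 of them rises. The other 193 lost their call in at least 1 fit. The 14 fits are not all distinct, because those without 1 LSK FLT3- array repeat the fit of the 4 LMPP arrays alone. Genes among the dimmest 40% were not tested in the fit that left these out. Leaving out 1 array gave 151 or 164 calls for WT LMPP replicate 1 or 2 and 93 or 107 for E2A-KO LMPP replicate 1 or 2. Without either array of LSK FLT3- the 4 LMPP arrays alone estimate the spread, and 89 genes passed. Fits in which the call of a named gene ended are given at the end of most paragraphs below, but not every such fit is listed. Calls that ended with the replicate block are mostly left out.

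**Figure D1:**
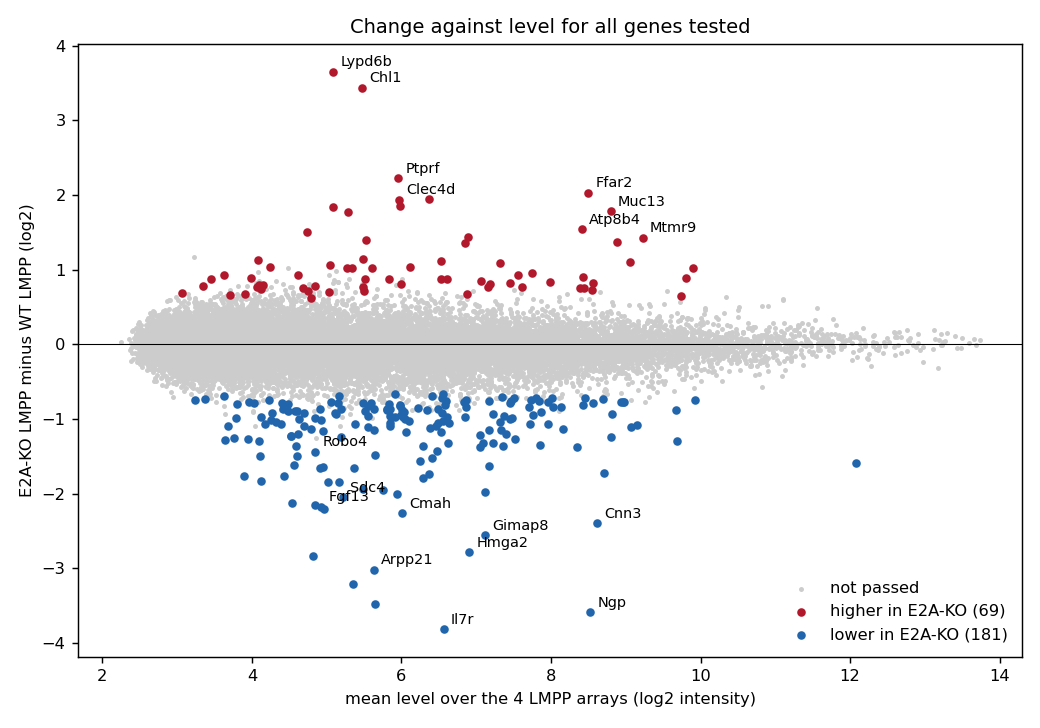
Change between genotypes (E2A-KO LMPP minus WT LMPP, log2, vertical axis) against the mean level over the 4 LMPP arrays (log2 intensity, horizontal axis), 1 point per gene. Grey points did not pass; the 69 red points rose and the 181 blue points fell, from Lypd6b at 3.65 to Il7r at -3.81.

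The targeted gene and the sort markers were read first. Tcf3 was at 6.93 and 6.87 in WT LMPP against 6.80 and 6.53 in E2A-KO LMPP, a difference of -0.23 that did not pass (adjusted p = 0.50). The position of its probe set relative to the deletion is unknown here, and Tcf3 therefore gives no check of the genotype labels. The SCA1 gene Ly6a was not analysed here. The gate genes Kit (-0.32) and Flt3 (-0.07), and the hematopoietic genes Ptprc (0.11) and Cd34 (-0.05), were high on all 4 arrays, between 8.47 and 11.36, and did not pass. Cd48 and Slamf1 were read beside them and are not named in the sort. Cd48 passed in limma with a difference of -0.72 (adjusted p = 0.0462). This call ended with the replicate block (0.0736) and whichever array was left out. Slamf1 was low on the LMPP arrays, from 3.08 to 3.57, and differed by 0.35 without passing. Markers of mature neutrophils stood apart between the genotypes, with a summed level (log2 of the summed intensities) of 11.55 on both arrays in WT LMPP against 9.23 and 9.41 in E2A-KO LMPP, and 7 of 10 fell. Those 7 lay between 6.22 and 10.32 in WT LMPP, above the array median. The other 3, Mmp8, Mmp9 and Cxcr2, lay between 4.06 and 4.33 on all 4 arrays, near the array median, and did not pass. The part of any neutrophil RNA in other differences was not tested.

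To show DNA near genes with large differences, the stretch from 250 bases before to 50 bases after the RefSeq transcription start is printed for the 3 largest falls and 2 largest rises of at least 2-fold that hold a CAGCTG or CAGGTG, which are E-box sequences that E2A proteins are known to bind. Capitals mark the match; CACCTG is CAGGTG on the other strand. All are 5′ to 3′ on the strand of the gene, from RefSeq on GRCm38.p6, and their distances count from the start base, so that a negative one lies before it. Ltf encodes lactoferrin, a granule protein (chr9:111019042-111019341, plus strand, first base of the match at -113). Ccr9 encodes a chemokine receptor of progenitors that home to the thymus (chr9:123766961-123767260, plus strand, -85). Arpp21 encodes a phosphoprotein known from brain and immature thymocytes (chr9:112187717-112188016, minus strand, -139), and 7 of its 9 listed starts have a match. Vldlr encodes a lipoprotein receptor (chr19:27216770-27217069, plus strand, -132), and 1 of its 2 starts has a match. Il18r1 encodes a chain of the interleukin-18 receptor (chr1:40465371-40465670, plus strand, 10), and 2 of its 3 starts have a match.
Ltf: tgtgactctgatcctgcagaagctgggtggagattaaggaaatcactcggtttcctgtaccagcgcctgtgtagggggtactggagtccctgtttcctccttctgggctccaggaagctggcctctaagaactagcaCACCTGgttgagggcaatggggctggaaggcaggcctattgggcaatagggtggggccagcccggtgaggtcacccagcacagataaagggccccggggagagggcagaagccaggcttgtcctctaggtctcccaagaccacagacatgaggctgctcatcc
Ccr9: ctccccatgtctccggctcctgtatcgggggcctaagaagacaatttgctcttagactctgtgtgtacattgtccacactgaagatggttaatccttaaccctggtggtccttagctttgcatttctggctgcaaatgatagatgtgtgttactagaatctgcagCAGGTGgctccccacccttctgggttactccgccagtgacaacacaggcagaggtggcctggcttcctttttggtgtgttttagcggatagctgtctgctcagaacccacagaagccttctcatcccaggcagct
Arpp21: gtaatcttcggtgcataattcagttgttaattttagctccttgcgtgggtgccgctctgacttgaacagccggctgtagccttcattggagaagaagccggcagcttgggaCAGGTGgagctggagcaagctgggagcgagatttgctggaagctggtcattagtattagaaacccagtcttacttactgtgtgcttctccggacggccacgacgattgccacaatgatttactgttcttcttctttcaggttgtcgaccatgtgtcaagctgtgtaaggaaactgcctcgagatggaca
Vldlr: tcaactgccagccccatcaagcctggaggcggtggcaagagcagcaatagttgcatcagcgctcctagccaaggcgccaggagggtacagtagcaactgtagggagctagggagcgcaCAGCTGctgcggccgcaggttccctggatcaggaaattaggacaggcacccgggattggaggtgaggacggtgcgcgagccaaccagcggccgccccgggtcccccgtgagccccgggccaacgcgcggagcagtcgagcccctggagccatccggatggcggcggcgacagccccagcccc
Il18r1: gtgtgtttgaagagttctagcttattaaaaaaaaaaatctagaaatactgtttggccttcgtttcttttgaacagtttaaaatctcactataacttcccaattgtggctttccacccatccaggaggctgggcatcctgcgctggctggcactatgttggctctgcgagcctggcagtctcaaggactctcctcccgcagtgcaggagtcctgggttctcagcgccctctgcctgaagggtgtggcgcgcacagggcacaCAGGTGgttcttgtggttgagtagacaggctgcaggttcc
Among genes with exactly 1 listed start, a CAGCTG or CAGGTG on either strand lay in this window in 3838 of 11792 genes tested (32.5%), in 37 of 107 genes that fell (34.6%) and in 8 of 43 that rose (18.6%). Of the 30 largest falls, 27 had a listed promoter and 11 of these a match at any start. Of the 20 largest rises, 16 had a listed promoter and 2 of these a match, and Il18r1 rose least of the 20. A gene with several starts has more chances of a match, so the counts at any start cannot be set beside the 32.5% for 1 start. These shares and counts describe the letters in the window and say nothing of binding.

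Receptors and ligands of cytokines held calls in both directions. Of 62 cytokine receptors measured, 2 rose and 4 fell, with a median difference of -0.04. Il31ra, which binds interleukin-31, lay at 4.09 and 4.71 in WT LMPP against 6.11 and 6.25 in E2A-KO LMPP, a rise of 1.78 (SE 0.20, adjusted p = 0.00401). Il18r1, whose promoter is printed above, rose by 1.12, from 6.17 and 5.77 to 6.96 and 7.21. For Il31ra the WT LSK FLT3- arrays, at 4.48 and 4.67, lay with WT LMPP. Pdgfrb, a receptor tyrosine kinase for platelet-derived growth factor, lay at 7.79 and 8.02 in WT LMPP against 6.85 and 6.66 in E2A-KO LMPP, a difference of -1.15 (SE 0.14, adjusted p = 0.00654). Csf1r, the receptor of macrophage colony-stimulating factor, went from 8.80 and 8.63 to 7.48 and 7.70, a difference of -1.13. Pdgfrb is also a marker of stroma, and of the 13 stroma and endothelium markers measured it was the only one to pass; Col1a1, Col3a1, Lum, Cdh5 and Lepr were at most 3.99 on all 4 LMPP arrays, while Sparc (5.50 to 5.72), Vcam1 (5.17 to 6.17) and Kdr (4.67 to 5.06) were above the array median. Il6st, the shared signalling chain of the interleukin-6 family, differed by -0.85 and the lymphoid receptor chain Il7r by -3.81. On the ligand side, Il12a, the p35 chain that interleukin-12 and interleukin-35 share, lay at 6.15 and 6.62 in WT LMPP against 4.88 and 4.93 in E2A-KO LMPP, a difference of -1.48 (SE 0.17, adjusted p = 0.00403). Ebi3, which pairs with p35 in interleukin-35, lay at 7.90 and 7.79 against 6.77 and 6.82, a difference of -1.04 (SE 0.13, adjusted p = 0.00598). Il12a, Ebi3 and Il6st are outside the rule for named genes and were chosen after their values were seen. Calls ended for Pdgfrb without E2A-KO LMPP replicate 2 (adjusted p = 0.0555), for Csf1r and Ebi3 without E2A-KO LMPP replicate 1 (0.0668 and 0.0507), and for Il18r1 (0.0644 to 0.115) and Il6st (0.0916 to 0.126) with any 1 array other than WT LMPP replicate 1 left out. The Il6st call also ended with the mean of its probe sets (0.160) and with the probe set of largest variance (0.0587).

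G protein-coupled receptors sense lipids, nucleotides, protons and metabolites. Of 62 known in blood cells and measured here, 1 rose and 5 fell, with a median of -0.06. Ffar2, which senses short-chain fatty acids, lay at 7.39 and 7.57 in WT LMPP against 9.59 and 9.43 in E2A-KO LMPP, a rise of 2.03 (SE 0.13, adjusted p = 0.000222). Ptger2, a receptor of prostaglandin E2, went the other way, from 7.14 and 7.20 to 5.75 and 5.55, a difference of -1.52 (SE 0.15, adjusted p = 0.00211). Its knockout levels lay between those of the WT LSK FLT3- arrays, 5.84 and 5.52. Gpr65, a proton-sensing receptor, fell by 1.05, from 6.93 and 7.08 to 5.89 and 6.03. The nucleotide receptors P2ry13 (-1.06) and P2ry14 (-0.72) and the adhesion receptor Adgrg1 (-0.73) fell as well, of which P2ry14 and Adgrg1 were chosen after their values were seen. Of 35 chemokines and chemokine receptors 1 rose and 2 fell, with a median of -0.07. Ccl9, a chemokine of myeloid cells, rose by 0.89, from 9.31 and 9.40 to 10.30 and 10.20, while Cxcl9, a chemokine that interferon induces, fell by 0.83. The receptor Ccr9 lay at 6.90 and 7.02 in WT LMPP against 3.82 and 3.67 in E2A-KO LMPP, below the array median. For Ccr9 2 of 5 probe sets passed. Calls ended for Gpr65 without E2A-KO LMPP replicate 1 (adjusted p = 0.0737), for P2ry13 without WT LMPP replicate 1, E2A-KO LMPP replicate 1 or either array of LSK FLT3- (0.0656 to 0.0912), for Ccl9 with any 1 array other than WT LMPP replicate 2 left out (0.0581 to 0.0882), and for P2ry14, Adgrg1 and Cxcl9 whichever of the 6 arrays was left out (0.0656 to 0.126). Those of Ccl9 and Cxcl9 ended with the mean of their probe sets (0.178 and 0.0704) and that of Adgrg1 with the probe set of largest variance (0.0531) or quantile normalization (0.0545).

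Cell adhesion molecules, matrix proteins and guidance receptors included genes better known from other tissues. Of 70 adhesion molecules 3 rose and 1 fell, with a median of -0.04. Chl1, a neural adhesion molecule of the immunoglobulin superfamily, lay at 4.28 and 3.23 in WT LMPP against 6.80 and 7.59 in E2A-KO LMPP, a rise of 3.44 (SE 0.35, adjusted p = 0.00241). The WT LMPP arrays lay on either side of the array median, and the WT LSK FLT3- arrays were lower still, at 2.59 and 3.04. The integrin chains Itgb7, of gut-homing lymphocytes, and Itga6, of laminin binding, rose by 0.82 and 0.77. Lgals9, a galectin, fell by 1.02. Sdc4, a heparan sulfate proteoglycan of the cell surface, lay at 6.14 and 6.33 against 4.02 and 4.36, a difference of -2.04 (SE 0.16, adjusted p = 0.000532). Sdc1, another syndecan, went up from 7.04 and 7.15 to 7.91 and 8.15, a rise of 0.94 (adjusted p = 0.0158), and was chosen after its values were seen. Postn, the matrix protein periostin, lay at 6.81 and 6.64 against 4.70 and 4.85, a difference of -1.95 (SE 0.13, adjusted p = 0.000260). The WT LSK FLT3- arrays, at 4.48 and 4.50, lay near the knockout arrays for Postn and far from WT LMPP. Mmrn1, a protein of platelets and endothelium, fell by 1.76 and Apcdd1, a membrane inhibitor of Wnt signalling, by 1.79, while the matrix genes Mamdc2 and Col19a1 rose by 1.15 and 1.14. Of 48 axon guidance genes 1 fell and 0 rose, which is 2.08% against 1.37% of all genes. This was Robo4, the endothelial and stem cell member of the roundabout receptors. Robo4 lay at 5.55 and 5.58 in WT LMPP against 4.11 and 4.14 in E2A-KO LMPP, a difference of -1.44 (SE 0.14, adjusted p = 0.00176). Its WT LSK FLT3- levels, 5.61 and 5.88, were above those of WT LMPP. Calls ended for Mmrn1 without E2A-KO LMPP replicate 1 (adjusted p = 0.0912), for Lgals9 and Sdc1 without WT LMPP replicate 1, E2A-KO LMPP replicate 2 or either array of LSK FLT3- (0.0536 to 0.0955), for Mamdc2 without WT LMPP replicate 2, E2A-KO LMPP replicate 2 or either array of LSK FLT3- (0.0598 to 0.0773), for Itgb7 with any 1 array other than WT LMPP replicate 1 left out (0.0905 to 0.125), for Col19a1 with any 1 array other than WT LMPP replicate 2 left out (0.0750 to 0.195), and for Itga6 whichever of the 6 was left out (0.0604 to 0.103). The mean of all probe sets ended those of Apcdd1 (0.148), Itga6 (0.0540) and Col19a1 (0.0704), and quantile normalization that of Col19a1 (0.0595).

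C-type lectins recognise sugars, lipids and dying cells, and several signal through immune receptor adaptors. Of 83 lectins, Siglecs and paired immune receptors 4 rose and 3 fell, with a median of -0.02. All 4 rises were among the 26 measured genes with a Clec symbol, of which 0 fell. Clec4d, an activating lectin receptor of myeloid cells, lay at 5.0 on both arrays in WT LMPP against 6.74 and 7.13 in E2A-KO LMPP, a rise of 1.94 (SE 0.16, adjusted p = 0.000797). Clec4e, the receptor Mincle, went from 4.12 and 4.19 to 6.07 and 5.93, a rise of 1.85 (SE 0.13, adjusted p = 0.000263). On the WT LSK FLT3- arrays Clec4d, at 7.21 and 7.02, overlapped the knockout levels, and Clec4e, at 7.24 and 7.18, lay above them. Clec10a, a galactose-type lectin, rose by 0.88 and Clec2i, a ligand of NK receptors, by 0.88. The 3 falls were Cd93 (-0.74), a receptor of early progenitors and myeloid cells, Cd200 (-0.78), a ligand that restrains myeloid cells, and Cd48 (-0.72), a ligand of the SLAM family; Cd93 and Cd200 were chosen after their values were seen. Calls ended with any 1 array other than WT LMPP replicate 2 left out for Clec10a (adjusted p = 0.0606 to 0.0793), with any 1 other than WT LMPP replicate 1 left out for Clec2i (0.0649 to 0.0954), and whichever of the 6 was left out for Cd93, Cd200 and Cd48 (0.0658 to 0.161). The mean of all probe sets ended those of Clec2i (0.0994) and Cd93 (0.114), the probe set of largest variance those of Cd93 (0.474), Cd200 (0.0560) and Cd48 (0.0657), and quantile normalization that of Cd48 (0.0723).

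Among proteins held at the membrane by a lipid anchor, Lypd6b had the largest rise of all genes tested. Lypd6b belongs to the Ly6 superfamily and is known from nicotinic receptor studies in neurons. It lay at 3.42 and 3.10 in WT LMPP, below the array median, at 6.95 and 6.88 in E2A-KO LMPP and at 5.03 and 5.12 in WT LSK FLT3-. The rise over WT LMPP was 3.65 (SE 0.15, adjusted p = 1.74e-05). Of 41 Ly6 and other anchored proteins 2 rose and 1 fell: Thy1, a marker of T cells and stem cells, rose by 1.02 and Gfra1, a co-receptor of glial-derived factor, fell by 1.27. Of 33 tyrosine phosphatases 1 rose and 0 fell, which is 3.03% against 1.37% of all genes. This was Ptprf, the LAR receptor phosphatase. Ptprf lay at 4.82 and 4.87 in WT LMPP against 6.92 and 7.21 in E2A-KO LMPP, a rise of 2.22 (SE 0.20, adjusted p = 0.00127). Muc13, a transmembrane mucin, rose from 7.88 and 7.93 to 9.67 and 9.71, by 1.78 (SE 0.12, adjusted p = 0.000277). Its WT LSK FLT3- levels were higher than either, at 10.56 and 10.65. Fgl2, a fibrinogen-like immune regulator, rose by 1.44, from 6.24 and 6.09 to 7.66 and 7.55. The Thy1 call ended whichever of the 6 arrays was left out (adjusted p = 0.0643 to 0.164), and that of Gfra1 without E2A-KO LMPP replicate 1 (0.0505) and with the mean of its probe sets (0.122).

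**Figure D2:**
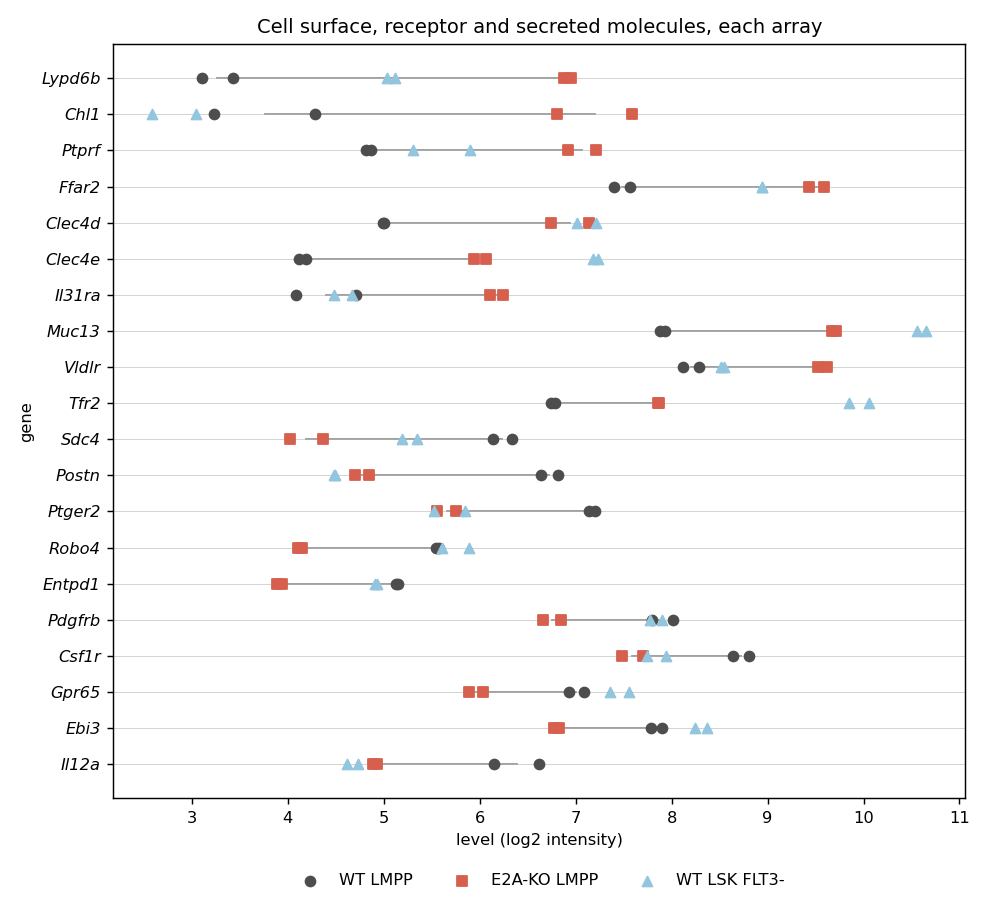
Level of 20 surface and secreted molecules on each array (log2 intensity, horizontal axis; 1 gene per line), with WT LMPP as circles, E2A-KO LMPP as squares and WT LSK FLT3- as triangles; grey lines join the LMPP group means. The upper 10 genes rose and the lower 10 fell, and for each the circles and squares lie apart, as for Lypd6b at 3.10 and 3.42 against 6.88 and 6.95; Tfr2, Ebi3 and Il12a were chosen after their values were seen.

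Enzymes that build and trim surface sugars had 3 falls and 0 rises among 88 measured genes, with a median of 0.02. Cmah, which hydroxylates N-acetylneuraminic acid to N-glycolylneuraminic acid, lay at 7.08 and 7.21 in WT LMPP against 5.02 and 4.75 in E2A-KO LMPP, a difference of -2.26 (SE 0.15, adjusted p = 0.000255). St8sia1, the sialyltransferase that makes ganglioside GD3, lay at 5.87 and 6.28 against 3.47 and 4.26, a difference of -2.21 (SE 0.26, adjusted p = 0.00525). Of 6 probe sets of Cmah 2 passed, and 2 differed in the other direction without passing. Of 3 probe sets of St8sia1 1 passed, and 1 differed in the other direction without passing. In WT LSK FLT3- Cmah, at 4.66 and 4.43, was below the knockout arrays, and St8sia1, at 3.64 and 3.23, overlapped them. Hpse, the heparanase that cuts heparan sulfate chains such as those of syndecans, fell by 0.91. The Hpse call ended with any 1 array left out, E2A-KO LMPP replicate 2 apart (adjusted p = 0.0526 to 0.118), and that of St8sia1 with the mean of its probe sets (0.0505).

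Adaptors that work below antigen receptors moved both ways. Of 44 such adaptors and kinases 1 rose and 2 fell, with a median of -0.13. Blnk, the B cell linker that gathers phospholipase C at the B cell receptor, lay at 6.15 and 6.01 in WT LMPP against 4.04 and 4.45 in E2A-KO LMPP, a difference of -1.84 (SE 0.16, adjusted p = 0.00127). Clnk, a related adaptor of mast cells and cytokine-driven cells, rose from 4.66 and 5.01 to 6.13 and 6.33, by 1.40 (SE 0.16, adjusted p = 0.00403). The scaffold Bank1 fell by 0.86. Of 61 genes of phosphoinositide signalling 0 rose and 2 fell, with a median of -0.21 and 45 below 0: Plcg1, a phospholipase C, by 1.21, and Pik3ap1, the adaptor BCAP, by 0.97. A pair of myotubularins, which take phosphate off phosphoinositides or regulate those that do, rose: Mtmr9 from 8.45 and 8.58 to 9.97 and 9.91, by 1.43 (SE 0.13, adjusted p = 0.00127), and Mtm1, chosen after its values were seen, by 1.11. Calls ended for Bank1 with any 1 array other than WT LMPP replicate 2 left out (adjusted p = 0.0586 to 0.0947), for Plcg1 with any 1 left out but the second replicate of either LMPP group (0.0516 to 0.0545), for Pik3ap1 without E2A-KO LMPP replicate 1 or 2 (0.0786 and 0.0555), and for Mtm1 without E2A-KO LMPP replicate 1 (0.0610). The mean of all probe sets ended those of Plcg1 (0.521), of whose 3 probe sets 2 differed in the other direction without passing, and Mtm1 (0.0587).

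Single genes of RAS and G protein signalling fell, as did some of nucleotide breakdown. Rasgrp3, an exchange factor that switches RAS on below the B cell receptor, fell by 1.49. Gem, a GTPase that restrains calcium channels, fell by 1.83, to 3.40 and 3.01, and Gna15, a G protein alpha subunit of blood cells, by 0.92. Gna15 was the only one of 39 listed genes of G protein regulation to pass. That is 2.56% against 1.37% of all genes, and the median of the list was 0.03. Of 46 genes of purine and nucleotide signalling 0 rose and 3 fell, which is 6.52% against 1.37% of all genes. Entpd1, the surface enzyme CD39 that breaks down extracellular ATP, lay at 5.12 and 5.14 in WT LMPP against 3.94 and 3.89 in E2A-KO LMPP, a difference of -1.22 (SE 0.12, adjusted p = 0.00211). The phosphodiesterases Pde2a and Pde4d, which break down cyclic nucleotides, passed at -1.32 and -0.81. Fgf13, an intracellular member of the fibroblast growth factor family that binds sodium channels, fell from 5.58 and 6.45 to 3.95 and 3.74, by 2.17 (SE 0.25, adjusted p = 0.00403). Calls ended for Rasgrp3 without E2A-KO LMPP replicate 1 or 2 (adjusted p = 0.0689 and 0.0778), for Gem without E2A-KO LMPP replicate 2 (0.0652), for Gna15 with any 1 array other than WT LMPP replicate 1 left out (0.0536 to 0.0839), and for Pde4d whichever of the 6 was left out (0.0532 to 0.120). Those of Pde2a (0.112) and Pde4d (0.127) ended with the mean of their probe sets.

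Other signalling pathways had calls in small numbers, most of them small changes, at shares above the 1.37% of all genes. The shares were 4.44% of the TGF-beta list and 4.35% of the MAP kinase list. They were 4.0% of the JAK, STAT and SOCS list and 5.88% of the NF-kappaB list. Of 45 genes of the TGF-beta, BMP and activin pathway 1 rose and 1 fell: the inhibitor Smad7 fell by 0.97 and the activin receptor Acvr2b rose by 0.77. Of 46 genes of MAP kinase feedback and early response 2 rose and 0 fell: the kinase Mapkapk3, a target of p38, by 0.91 and the p38 isoform Mapk11 by 0.75. Socs2, a feedback inhibitor of cytokine signalling, fell by 0.79, and was the only one of 25 JAK, STAT and SOCS genes to pass. Of 51 NF-kappaB, Toll-like and inflammasome genes 0 rose and 3 fell. Tnfaip3, the A20 enzyme that restrains NF-kappaB, lay at 6.32 and 6.41 in WT LMPP against 5.34 and 5.29 in E2A-KO LMPP, a difference of -1.05 (SE 0.13, adjusted p = 0.00541). Tlr7, a receptor of single-stranded RNA, fell by 1.15 and Ly86, the partner of a Toll-like protein of B cells, by 0.70. Calls ended for Tlr7 without E2A-KO LMPP replicate 1 (adjusted p = 0.0728), for Smad7 without WT LMPP replicate 1, E2A-KO LMPP replicate 2 or either array of LSK FLT3- (0.0629 to 0.0915), for Mapkapk3 and Socs2 with any 1 array left out but WT LMPP replicate 1 and replicate 2 respectively (0.0670 to 0.123), and for Acvr2b, Mapk11 and Ly86 whichever of the 6 was left out (0.0606 to 0.155). The mean of all probe sets ended those of Acvr2b (0.353), Mapk11 (0.164), Mapkapk3 (0.0799), Socs2 (0.397), Tnfaip3 (0.140) and Tlr7 (0.0704), and the probe set of largest variance (0.0656) or quantile normalization (0.0596) that of Ly86.

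Most measured GTPases of the immune-associated family fell, and some genes of the interferon response fell too. Of 18 immune GTPases listed 9 fell and 0 rose, against 0.995% of all genes that fell. Their median was -0.68 and all 18 were below 0. The list was drawn up with earlier results of these data known, so this share is not a measure of enrichment. With 1 array left out, whichever it was, 6 or 7 fell. The GIMAP proteins are membrane-bound GTPases that lymphocytes need for survival, and 6 of 8 measured fell. Gimap8 lay at 8.21 and 8.58 in WT LMPP against 6.11 and 5.57 in E2A-KO LMPP, a difference of -2.56 (SE 0.20, adjusted p = 0.000649). Gimap7 lay at 5.93 and 5.89 against 3.62 and 3.91, a difference of -2.15 (SE 0.14, adjusted p = 0.000222). Gimap6 (-1.56), Gimap5 (-1.20), Gimap1 (-1.18) and Gimap9 (-1.11) followed. On the WT LSK FLT3- arrays Gimap8 was at 9.94 and 9.73, above either LMPP group, whereas Gimap7 was at 5.10 and 5.17, between them. Gbp6, a guanylate-binding protein of the interferon response, lay at 6.18 and 6.20 against 4.48 and 4.58, a difference of -1.66 (SE 0.14, adjusted p = 0.00112). Of 49 genes of interferon regulation and response 8 fell and 0 rose, with a median of -0.29 and 44 below 0. That is 16.3% of the list against 1.37% of all genes. Without 1 array the count was 4 or 5 for WT LMPP replicate 1 or 2, 4 or 1 for E2A-KO LMPP replicate 1 or 2, and 2 for either array of LSK FLT3-. Ifit1, which binds foreign RNA, lay at 5.16 and 5.09 in WT LMPP against 4.15 and 4.10 in E2A-KO LMPP, a difference of -1.0 (SE 0.12, adjusted p = 0.00620). The GTPase Iigp1 fell by 1.10, Ifi27l2a differed by -0.997 and Ifit2 by -0.97, and both passed. Calls ended for Gimap1 without E2A-KO LMPP replicate 1 (adjusted p = 0.0616), for Gimap5 without WT LMPP replicate 1 or either array of LSK FLT3- (0.0545 to 0.0554), for Iigp1 with any 1 array left out, E2A-KO LMPP replicate 1 apart (0.0557 to 0.107), for Ifi27l2a without E2A-KO LMPP replicate 2 or either array of LSK FLT3- (0.0520 to 0.0672), and for Ifit2 without E2A-KO LMPP replicate 1 or 2 (0.0606 and 0.0672). The Iigp1 call also ended with the probe set of largest variance (0.114).

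In the list of actin and cytoskeleton genes, those that passed fell. Of 93 measured 8 fell and 0 rose, which is 8.6% against 1.37% of all genes. The median was -0.11, with 62 below 0. The 8 include Arpp21, the phosphoprotein described above, which is not a known actin protein. The count of falls was 5 without WT LMPP replicate 1 or either array of LSK FLT3-. Arpp21, whose promoter is printed above, lay at 7.17 and 7.11 in WT LMPP against 3.98 and 4.27 in E2A-KO LMPP. The difference was -3.02 (SE 0.16, adjusted p = 5.54e-05), and 1 of its 5 probe sets passed. Cnn3, a calponin that binds actin, lay at 9.69 and 9.93 against 7.44 and 7.39, a difference of -2.39 (SE 0.14, adjusted p = 0.000115), and all 6 of its probe sets fell. For Cnn3 the WT LSK FLT3- arrays, at 7.45 and 7.62, lay just above the knockout arrays. Myl10, a myosin light chain of lymphocytes, fell from 7.14 and 6.75 to 5.05 and 4.82, by 2.01 (SE 0.16, adjusted p = 0.000723). Marcks, which links actin to the membrane, fell by 1.38. Cttn and Gsn, which branch and cut actin filaments, differed by -1.27 and -1.20 (adjusted p = 0.00403 and 0.00952) and were chosen after their values were seen. Of 51 calcium-binding and secretion genes 2 rose and 5 fell, and 1 rose and 3 fell whichever array was left out. Sytl4, which docks secretory granules, lay at 6.49 and 6.42 in WT LMPP against 4.21 and 4.84 in E2A-KO LMPP. The difference was -1.94 (SE 0.20, adjusted p = 0.00211). Of its 2 probe sets 1 passed, and 1 differed in the other direction without passing. S100a4, a calcium-binding protein of motile cells, rose from 4.74 and 5.36 to 6.91 and 6.89, by 1.85 (SE 0.19, adjusted p = 0.00248), while the granulocyte proteins S100a8 and S100a9 also passed (-1.72 and -1.36), beside the summed neutrophil markers given above. S100a6 rose by 0.77, and Camk1d and Mctp2 fell by 0.90 and 0.86. The probe set of largest variance ended the calls of S100a6 (adjusted p = 0.0518) and Camk1d (0.218), and the mean of all probe sets that of Camk1d (0.127). Calls ended for Gsn without E2A-KO LMPP replicate 1 (adjusted p = 0.0776), for S100a6, Camk1d and Mctp2, chosen after their values were seen, whichever array was left out (0.0571 to 0.141), for Marcks without either WT LMPP or either array of LSK FLT3- (0.0539 to 0.0606), and for Cttn with the mean of its probe sets (0.152).

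Transcription and chromatin factors passed in small numbers. The shares were 6.67% of E proteins and Id factors and 3.45% of ETS and RUNX factors, against 1.37% of all genes. In the Klf family, described because it held at least 3 calls, the share was 18.8%. Of 15 E proteins and Id factors 1 fell and 0 rose: Id2, an inhibitor of E proteins, lay at 7.83 and 7.65 in WT LMPP against 6.01 and 6.71 in E2A-KO LMPP, a difference of -1.38 (SE 0.21, adjusted p = 0.0181). Of 29 ETS and RUNX factors 1 fell and 0 rose: Ets1, of lymphoid cells, by 1.63, from 7.77 and 8.20 to 6.05 and 6.67. Among 16 genes of the Klf family, zinc finger factors of quiescence and differentiation, Klf3 fell by 1.24 and Klf4 by 1.13, while Klf9 rose by 0.95. Hmga2, a DNA-bending protein of fetal and stem cells, lay at 8.39 and 8.21 against 5.58 and 5.46, a difference of -2.78 (SE 0.13, adjusted p = 4.05e-05), with 3 of its 4 probe sets passing. It was the only one of 20 genes of the let-7 axis to pass. Auts2, a nuclear factor known from brain development, rose from 5.49 and 5.31 to 7.30 and 7.39, by 1.94 (SE 0.15, adjusted p = 0.000532), whereas WT LSK FLT3- lay at 5.52 and 5.21. Notch1, the receptor that starts T cell development, lay at 10.39 and 10.28 against 8.89 and 9.19, a difference of -1.29 (SE 0.14, adjusted p = 0.00395). No other of the 34 Notch pathway genes passed, so that 2.94% did, against 1.37% of all genes. Ccnd1, a cyclin of the first growth phase, fell by 1.05. No other of the 50 cell cycle regulators passed, a share of 2.0%. Calls ended for Ets1 without E2A-KO LMPP replicate 1 and without WT LMPP replicate 2 (adjusted p = 0.0553 to 0.0616), for Id2 and Klf4 with any 1 array left out, E2A-KO LMPP replicate 2 apart (0.0553 to 0.126), and for Klf9 and Ccnd1 with any 1 array left out, E2A-KO LMPP replicate 1 apart (0.0604 to 0.0915). The mean of all probe sets ended those of Klf3 (0.0762), Klf4 (0.0809) and Klf9 (0.122), and the probe set of largest variance that of Klf9 (0.116).

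Metabolic enzymes and transporters passed in both directions. Acss1, a mitochondrial enzyme that activates acetate, lay at 7.15 and 7.32 in WT LMPP against 5.39 and 5.62 in E2A-KO LMPP. The difference was -1.73 (SE 0.16, adjusted p = 0.00163). Of its 3 probe sets 1 passed, and 1 differed in the other direction without passing. Slc27a2, which takes up and activates long fatty acids, fell from 5.55 and 5.93 to 3.89 and 4.29, by 1.65 (SE 0.18, adjusted p = 0.00357). Cybb, the catalytic chain of the phagocyte NADPH oxidase, fell from 5.74 and 5.79 to 3.78 and 4.48, by 1.64 (SE 0.21, adjusted p = 0.00709). Other genes rose: Hk3, a hexokinase of myeloid cells, from 6.20 and 6.13 to 7.61 and 7.45, by 1.36 (SE 0.13, adjusted p = 0.00176). Vldlr, a receptor of lipoproteins and reelin, rose from 8.12 and 8.28 to 9.62 and 9.52, by 1.37 (SE 0.13, adjusted p = 0.00176), and 5 of its 6 probe sets passed. Atp8b4, a lipid flippase, rose from 7.48 and 7.79 to 9.21 and 9.15, by 1.55 (SE 0.16, adjusted p = 0.00211). For Vldlr and Atp8b4 the knockout arrays were the highest of the 6, with WT LSK FLT3- at 8.54 and 8.52 and at 7.76 and 7.50. Tfr2, a sensor of iron-loaded transferrin, rose by 1.10, from 6.78 and 6.74 to 7.87 and 7.85, and was chosen after its values were seen. F13a1, a coagulation factor that crosslinks fibrin and a marker of monocytes, fell by 1.84, from 5.84 and 6.03 to 4.31 and 3.88. Of 13 monocyte and macrophage markers it and Csf1r were the only ones to pass.

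The solute carriers, which move ions and metabolites across membranes, held 4 rises and 6 falls among 347 genes, with a median of 0.01. That is 2.88% of the family, against 1.37% of all genes. Besides Slc27a2, the falls were in the endosomal proton exchanger Slc9a9 (-1.31), the lysosomal peptide and histidine carrier Slc15a4 (-1.06), the mitochondrial carrier Slc25a53 (-0.93), the vesicular amine carrier Slc18a1 (-0.91) and the lysosomal nucleoside carrier Slc29a3 (-0.74). The rises were in Slc16a12 (1.51), of the monocarboxylate carriers, the chloride exporter Slc12a5 (0.80), Slc35f2 (0.79) and the anion exchanger Slc4a3 (0.68). These 4 were at most 4.57 on both WT LMPP arrays. Among lipid enzymes 2 of 61 fell, the desaturase Fads3 (-1.01) and the acyltransferase Lpcat2 (-0.94), and 0 rose. Among ion channels the glycerol and water channel Aqp9 rose by 0.85 and the potassium channel Kcnk5 fell by 0.77. In the complement, coagulation and protease list, the thrombin receptor partner Thbd (-0.89) and the gelatinase Mmp2 (-0.94) fell beside F13a1, and the protease inhibitor Wfdc17 rose by 1.02. Slc27a2 and F13a1 kept their call in every fit. Slc9a9 lost it with the mean of its probe sets (adjusted p = 0.0704), Fads3 without WT LMPP replicate 2 or either E2A-KO LMPP array (0.0541 to 0.0874) and Slc16a12 without either E2A-KO LMPP or either array of LSK FLT3- (0.0527 to 0.0930). Lpcat2 lost it without WT LMPP replicate 1, E2A-KO LMPP replicate 1 or either array of LSK FLT3- (0.0739 to 0.110), and the other solute carriers, both channels, Thbd, Mmp2 and Wfdc17 with each of at least 5 of the 6 arrays left out in turn (0.0526 to 0.176). The mean of all probe sets also ended the calls of Lpcat2, Aqp9, Kcnk5, Mmp2 and the solute carriers other than Slc27a2 and Slc16a12 (0.0704 to 0.479). With the probe set of largest variance the calls of Slc25a53 (0.721), Slc35f2 (0.0632) and Slc4a3 (0.0668) ended too.

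**Figure D3:**
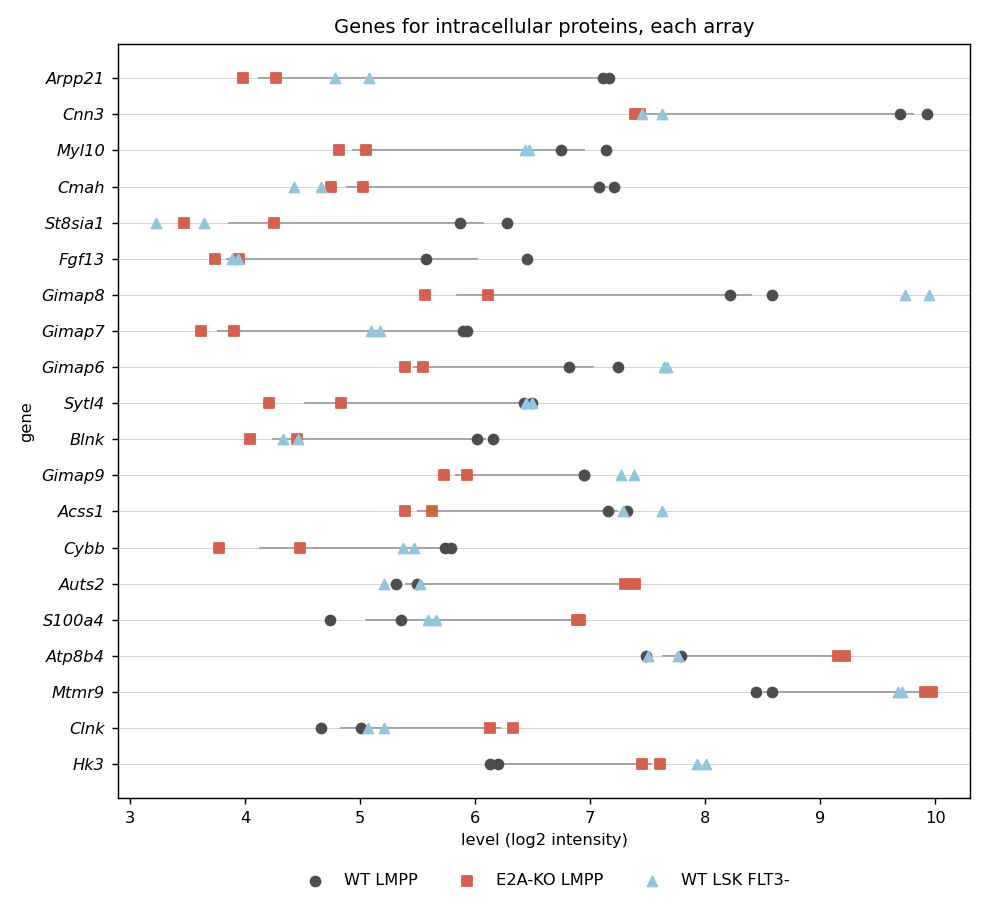
Level of 20 genes for intracellular proteins on each array (log2 intensity, horizontal axis; 1 gene per line), with WT LMPP as circles, E2A-KO LMPP as squares and WT LSK FLT3- as triangles; grey lines join the LMPP group means. The upper 14 genes fell and the lower 6 rose, and the circles and squares of each lie apart, as for Cnn3 at 9.69 and 9.93 against 7.44 and 7.39.

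In 7 of the 41 lists, with 333 measured members, 0 genes passed by limma, while 64 of their 331 distinct genes had an unadjusted p under 0.05 (19.3%, against 14.6% of all genes tested). These were the TNF and TNF receptor superfamily (36 genes), the Wnt and Hedgehog pathways (60), homeobox factors outside the Hox clusters (49), nuclear receptors and retinoid genes (52), MHC and antigen processing (29), survival and death genes (37), and chromatin writers, erasers and remodellers (70). The members with the largest differences in each list were all lower in E2A-KO LMPP. With the probe set of largest variance in place of the brightest, Tcf7l2 (0.42), Satb1 (0.17), Tle3 (0.12) and Mr1 (0.072) of these lists were instead above 0. Tnfrsf13c, the BAFF receptor, differed by -0.76 (95% interval -1.16 to -0.37, adjusted p = 0.0817) and Tnfrsf1b, a TNF receptor, by -0.59. Esr1, an estrogen receptor, differed by -0.75 (-1.11 to -0.39, adjusted p = 0.0671). Stk17b, a death-associated kinase of lymphocytes, differed by -0.69 (-1.0 to -0.38, adjusted p = 0.0540). Satb1, a chromatin organiser of lymphoid cells, lay at 11.09 and 11.12 against 10.50 and 10.57, a difference of -0.57 (-0.85 to -0.28, adjusted p = 0.0762). Kdm7a, a histone demethylase, differed by -0.87 (-1.36 to -0.38, adjusted p = 0.103), the widest of these intervals. The intervals given lie below 0 before adjustment, but these members were picked for the largest differences of their lists. Their intervals therefore say nothing of the lists as a whole. The lack of a call in a list likewise does not show that its genes were alike in both genotypes.

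**Figure D4:**
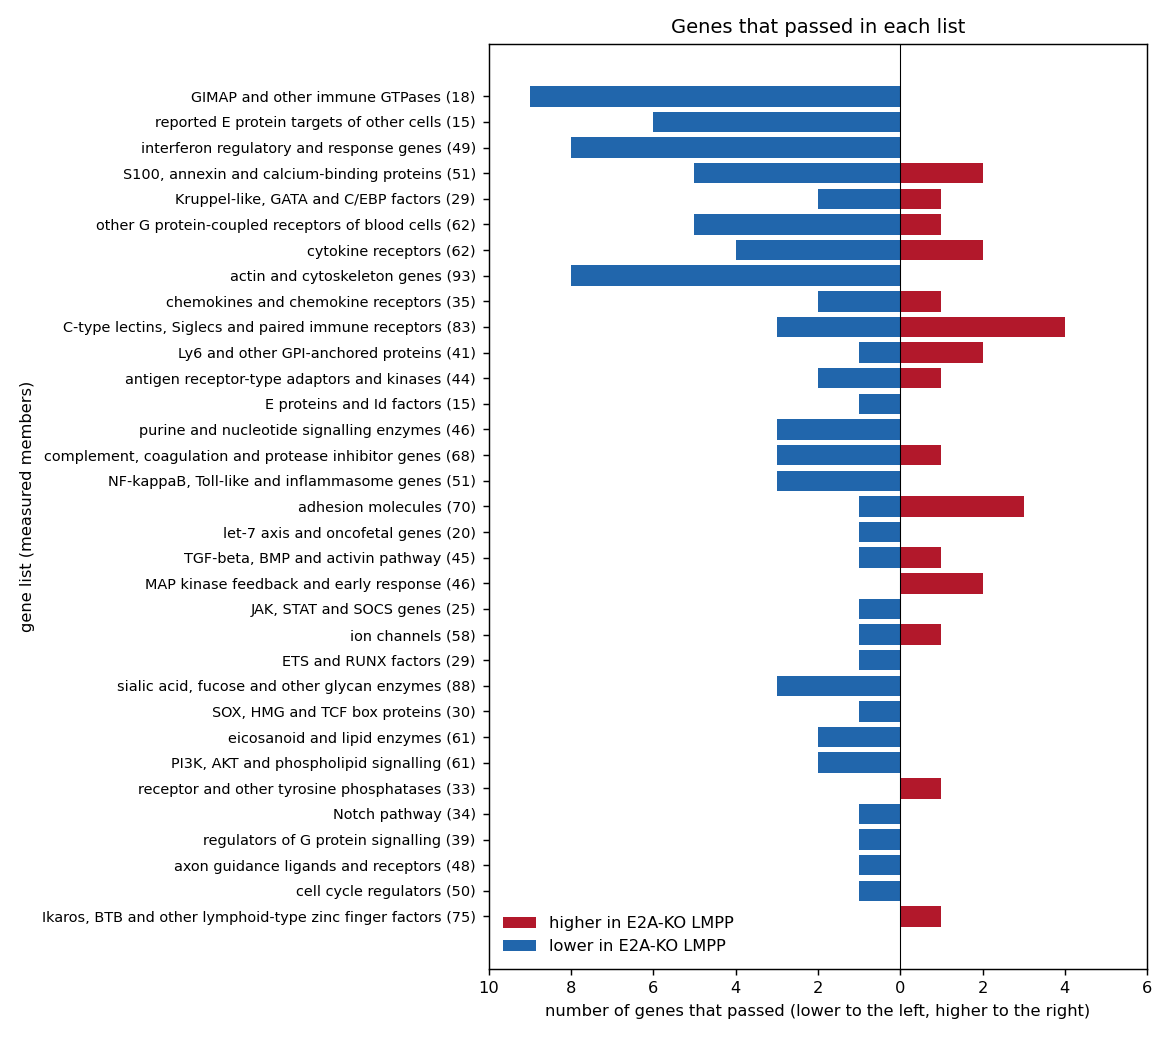
Number of genes that fell (blue, to the left) or rose (red, to the right) in E2A-KO LMPP in each of the lists reported here with at least 1 call (vertical axis, with the number measured), ordered by the share that passed; bars start at 0. The longest bars are the 9 falls among 18 immune GTPases, then 8 each among 49 interferon genes and 93 actin and cytoskeleton genes. The falls of the actin list include Arpp21, which is not a known actin gene. Lists share some members.

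Marker lists of other cells that a sort could hold were read for the same arrays. The dendritic and plasmacytoid list was at a summed level of 11.86 and 11.96 in WT LMPP against 11.6 and 11.7 in E2A-KO LMPP, with Ccr9 the only one of 11 to pass. The B lineage list was at 10.3 on both WT arrays and at 10.2 on both knockout arrays, where Ighm, Igll1 and Cd79b gave most of the signal, Ms4a1 and Ebf1 were at most 3.89 on all 4 arrays, and Vpreb1, a surrogate light chain, was the only one of 10 to pass (-1.76). The T lineage list was at 7.58 and 7.66 against 7.74 and 7.94, with Thy1 the only one of 10 to pass, and Cd3d, Cd3g and Cd5 at most at 3.79, while Cd3e (5.63 to 5.89), Cd8a (4.70 to 5.06) and Cd4 (4.62 to 5.15) were above the array median. The NK list was at 9.24 and 9.30 against 9.40 and 9.54, with Nkg7 up by 0.83 and Id2 down, and Ncr1 and Eomes at most at 3.96 on all 4 arrays. The mast cell, erythroid and megakaryocyte lists had 0 genes pass among 8 measured in each, yet their summed levels stood apart between the genotypes. The mast cell list was at 7.77 and 7.80 in WT LMPP against 7.93 and 8.01 in E2A-KO LMPP. The megakaryocyte list was at 7.41 and 7.44 against 7.67 and 7.69, and the erythroid list at 10.17 on both WT arrays against 9.86 and 9.92. Of 8 genes, 1 was below 0 in the mast cell list, 1 in the megakaryocyte list and 4 in the erythroid list. The monocyte list was at 9.56 and 9.74 in WT LMPP against 9.12 and 9.26 in E2A-KO LMPP, with Cd14, Adgre1 and Cx3cr1 at most at 4.16, and Ccr2 (5.71 to 6.34), Cd68 (5.06 to 6.18) and Ms4a6c (5.92 to 6.33) above the array median. Its median difference was 0.29, with 4 of 13 below 0. The Vpreb1 call ended without E2A-KO LMPP replicate 1 (adjusted p = 0.0581) and that of Nkg7 whichever array was left out (0.0535 to 0.129). The part of these levels in the differences above was not tested.

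**Figure D5:**
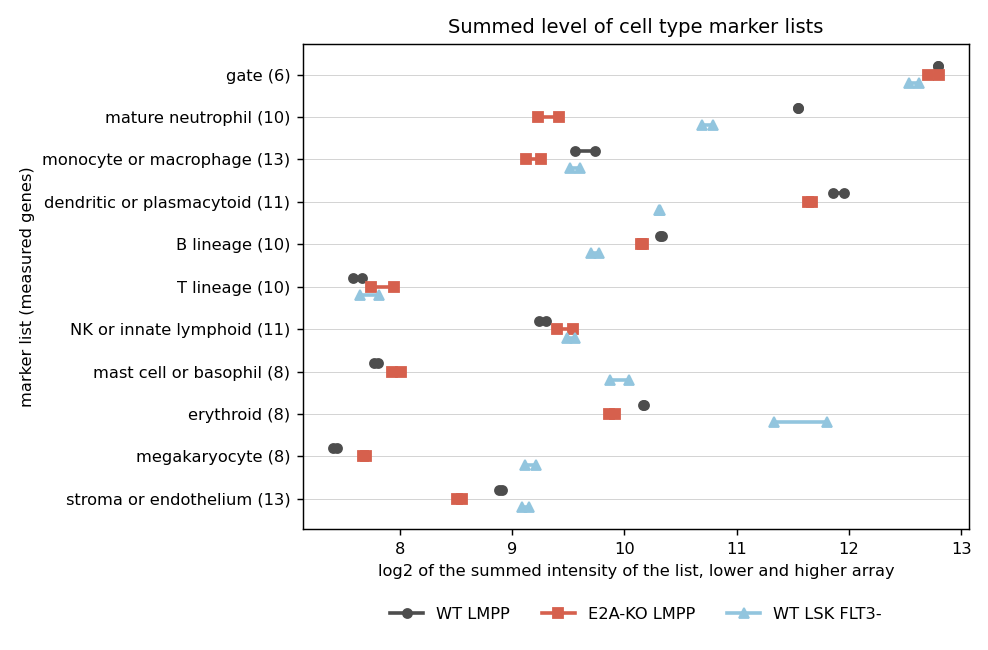
Summed level of each marker list (log2 of summed intensity, horizontal axis) as the lower and higher of the 2 arrays of a group, joined by a line, for WT LMPP (circles), E2A-KO LMPP (squares) and WT LSK FLT3- (triangles); the number of measured genes is in brackets. The widest gap between the LMPP groups is in the mature neutrophil list, at 11.55 on both WT arrays against 9.23 and 9.41.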

How the data were processed

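RNA of sorted cells was measured on 6 Affymetrix arrays. Per the labels' protocols, cells were sorted into lysis buffer and RNA was amplified in a small-sample protocol before biotin labelling, which favours the 3' end of transcripts. The deposited values are intensity per probe set on a linear scale (4.23 to 25594), for which the processing notes of the submitters name RMA without a version. No detection calls were used; arrays have no read depth, and the number of arrays limits the precision.

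Values were taken to log2. Of 45101 probe sets, 34958 carry 1 gene symbol in the platform annotation, 932 several and 9211 none; each of 18194 genes is represented by its single-symbol probe set with the highest mean over the 6 arrays. Samples were grouped by title; a further label calls all samples WT LMPP and was set aside. In limma 3.58.1 (R 4.3.3) 1 mean per group was fitted on all 6 arrays, with 3 residual and 5.8 prior degrees of freedom, and the script was tested on simulated data. Tests are two-sided.

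The lists and rules were chosen with earlier results of these data known. Named genes are up to 4 members of a list with the largest changes that passed, or up to 2 where none did. They also include the 20 largest rises and 30 largest falls of at least 2-fold, and members of families with at least 3 calls. Tcf3, the sort markers and the surface markers read beside them were named as well. Others are said to be chosen after their values were seen. Promoters came from RefSeq (14453 genes matched). Alternatives were the 4 LMPP arrays alone, the replicate block, a dim filter, other probe set rules, other normalizations, another variance model, an adjusted p under 0.1, and each array left out. Figures used matplotlib 3.10.9 in Python 3.11.15. The result of 1 list is not reported here.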

Additional observations from a re-analysis of the deposited data

How the results depend on the processing

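The count of genes that changed, 250 (69 higher, 181 lower), was 335 without the dimmest 40% of genes, 181 with the mean of all probe sets (45 higher), 233 with the probe set of largest variance, 224 after quantile normalization and 279 with array medians centred. It was 89 (19 higher, 70 lower) with only the 4 LMPP arrays, 548 (162 and 386) with a variance trend and robust estimation, and 508 (155 and 353) at an adjusted p under 0.1. Leaving out each array in turn gave 89 to 164 (19 to 44 higher, 70 to 120 lower), with the lowest count where an LSK FLT3- array was left out. The replicate block gave 200 calls, 192 of them shared. Deviations of same-numbered arrays of the LMPP groups had r = 0.0226, so no large shared deviation was seen. Whether the numbers pair the samples is not given and cannot be settled by this value. Of the 250 calls, 248 kept their sign in every fit. Among genes that had not passed, Tcf7l2 (0.42), Satb1 (0.17), Tle3 (0.12) and Mr1 (0.072) turned positive with the probe set of largest variance, and Cd34, which ranged from -0.121 to 0.017 over the fits without 1 array, without E2A-KO LMPP replicate 2; the cause was not tested. For named genes, 361 alternative values fell short of the threshold and 15 newly passed it, with fits that repeat each other counted each time. The call ended in at least 1 fit for all 127 changes under 2-fold and for 66 of the 123 of at least 2-fold.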

Other observations

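Probe sets that name no single gene were tested in a fit of all 45101 probe sets, with p adjusted over these, and enter no count above. Of 9211 probe sets with no symbol in the platform annotation, 89 were higher and 22 lower in E2A-KO LMPP, whereas among named genes 69 were higher and 181 lower. Of 932 probe sets with several symbols, 3 were higher and 3 lower.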
